A study of Mus musculus with 10 samples.

Results

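The 35 genes described here act in mitosis. They were taken as a named set covering proliferation, the cyclin-dependent kinase CDK1 and its cyclins, Aurora and Polo kinases, the spindle checkpoint, the anaphase-promoting complex, kinetochores, kinesins, the spindle and cytokinesis. They were found by matching Ensembl identifiers to GENCODE symbols, 35 genes of the 41091 identifiers counted. All 35 passed the filter on low counts that 16669 genes passed, with member counts from 43 to 6636 in a library. The set was measured by RNA sequencing in cultures of regenerating olfactory epithelium. The series asked what loss of the Polycomb chromodomain proteins CBX7 and CBX8 does to this tissue. All cells came from adult C57BL6 mice, 9 days after the drug methimazole destroyed the epithelium, and were grown attached to gelatin-coated plastic in a NeuroCult medium supplemented for proliferation, with EGF, FGF2 and heparin. The groups, all transduced with lentivirus, were 3 libraries with a short hairpin RNA against Cbx8 (shCBX8 replicates 1, 2 and 6), 3 carrying one that targets Cbx7 (shCBX7, numbered 1, 2 and 5) and 4 with a non-targeting scrambled hairpin (shCTR replicates 1, 2, 5 and 6). The labels call the replicates biologic but do not tie them to separate mice or dishes, and the p-values below therefore reflect library-to-library spread that may be technical.

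Mitosis genes are transcribed late in the cell cycle, and their mRNAs are scarce in resting cells. In resting cells the DREAM complex, which holds a pocket protein, an E2F protein and the MuvB core, represses them. In dividing cells the MuvB core joins B-MYB and FOXM1 and activates the same promoters, through a short element called the CHR and often with the CCAAT-binding factor NF-Y. The abundance of the set in a bulk sample therefore commonly serves as a readout of how many cells are in G2 or mitosis. In the olfactory epithelium the dividing cells are mainly globose basal cells, with horizontal basal cells as the reserve stem cells that divide after severe injury. In bulk RNA, fewer cells of a type and less RNA per cell cannot be told apart.

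The promoters of the set carried both elements more often than promoters in general. RefSeq promoter windows of GRCm38.p6 (the mm10 build), 300 bases around the start and mostly before it, were available for 30 of the 35 genes, with 33 promoters in all. Kif20a, Cdc25c, Ccna2, Tpx2 and Aurkb had no window. The CCAAT box (letters CCAAT) and the CHR (letters TTTGAA) were searched on both strands, and a base could count for both. CCAAT was found in 75.8% of the 33 promoters, against 37.4% of all 32851 promoters of the same length. TTTGAA was found in 75.8% of the members' promoters, against 17.9% of all. Both were found in 66.7% of the members' promoters, against 6.95% of all. A match describes letters and is neither a binding site nor a cause. The 8 windows below, read 5′ to 3′ and ending at or before the RefSeq start, show how the elements lie in genes at both ends of the values below, and were chosen after those were seen. In shCBX8 against shCTR, Mki67, Cdc20, Top2a and Ccnb1 had log2 fold changes near or under -1, and Cdk1, Bub3, Kif11 and Pttg1 had values closer to 0. Capitals mark CCAAT or TTTGAA on either strand, the complementary strand being read as ATTGG or TTCAAA.
Mki67, chr7:135716380-135716579, minus strand: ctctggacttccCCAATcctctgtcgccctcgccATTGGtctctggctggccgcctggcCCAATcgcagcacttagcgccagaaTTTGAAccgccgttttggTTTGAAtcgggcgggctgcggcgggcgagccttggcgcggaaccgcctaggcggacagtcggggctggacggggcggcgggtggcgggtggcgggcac
Cdc20, chr4:118437344-118437463, minus strand: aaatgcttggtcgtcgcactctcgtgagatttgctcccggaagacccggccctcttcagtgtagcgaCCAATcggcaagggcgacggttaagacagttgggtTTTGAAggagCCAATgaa
Top2a, chr11:99024190-99024309, minus strand: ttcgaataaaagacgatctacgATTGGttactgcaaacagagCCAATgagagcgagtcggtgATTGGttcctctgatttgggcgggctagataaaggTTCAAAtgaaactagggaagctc
Ccnb1, chr13:100786487-100786606, minus strand: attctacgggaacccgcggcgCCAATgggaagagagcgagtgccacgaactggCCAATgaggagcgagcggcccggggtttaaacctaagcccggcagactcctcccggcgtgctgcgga
Cdk1, chr10:69352913-69353032, minus strand: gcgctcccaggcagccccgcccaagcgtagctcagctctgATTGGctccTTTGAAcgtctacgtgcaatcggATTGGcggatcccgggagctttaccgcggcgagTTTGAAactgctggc
Bub3, chr7:131560250-131560369, plus strand: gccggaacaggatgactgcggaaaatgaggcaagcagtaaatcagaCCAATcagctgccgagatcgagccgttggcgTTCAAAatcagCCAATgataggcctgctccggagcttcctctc
Kif11, chr19:37376262-37376381, plus strand: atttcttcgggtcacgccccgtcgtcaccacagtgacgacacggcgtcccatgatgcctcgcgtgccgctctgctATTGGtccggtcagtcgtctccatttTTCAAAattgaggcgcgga
Pttg1, chr11:43425982-43426101, minus strand: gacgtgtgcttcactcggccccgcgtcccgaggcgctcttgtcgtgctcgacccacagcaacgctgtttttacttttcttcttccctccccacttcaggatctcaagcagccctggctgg

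Genes at both ends of the values held these letters. Cdk1 and Bub3 hold both elements, as Mki67, Cdc20 and Top2a do, and Ccnb1, which holds CCAAT boxes without the letters TTTGAA, was near -1. TTTGAA was the only spelling of the CHR searched, so a gene without it was not shown to lack a CHR. Across the set, the 19 genes with both elements had a median log2 fold change of -0.84 in shCBX8 against shCTR, with a range of -1.58 to 0.28. The 5 genes with neither (Birc5, Mad2l1, Nuf2, Nusap1 and Pttg1) had a median of -0.67, with a range of -1.08 to -0.03. The ranges overlapped, and no test was made of this description.

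The libraries held 22763014 to 50463172 reads assigned to genes on the reverse strand. The share of unmapped reads was 7.28 to 7.81% in shCBX8, 5.03 to 6.2% in shCBX7 and 9.83 to 21.7% in shCTR. It was highest in shCTR replicates 1 and 2 (21.7 and 19.6%). Those libraries also had the fewest reads assigned to genes (26549274 and 22763014) and the highest forward-strand shares (10.4 and 8.68%). The targeted genes were checked first. Cbx8 had 4.99, 5.14 and 4.71 CPM (read counts scaled to the size of the library) in shCBX8 replicates 1, 2 and 6, against 12.4, 15.9, 10.2 and 10.8 CPM in shCTR replicates 1, 2, 5 and 6. The groups did not overlap, and the log2 fold change was -1.31 (SE 0.22, adjusted p = 0.00416 by edgeR's quasi-likelihood test; exact two-sided permutation p = 0.0286, the smallest this design allows). Cbx7 had 3.64, 8.02 and 13.1 CPM in shCBX7 replicates 1, 2 and 5, against 17.7, 16.4, 13.5 and 5.30 CPM in shCTR. Those groups overlapped, and a fall was not shown (log2 fold change -0.67, SE 0.48, adjusted p = 0.929 by edgeR, exact two-sided permutation p = 0.314), so these are called the libraries labelled shCBX7. Cell type markers also differed between libraries. All 8 fibroblast markers were detected, and their summed level was 241 to 3176 CPM in shCBX8, 6034 to 18186 CPM in libraries labelled shCBX7 and 6217 to 28874 CPM in shCTR. The 6 horizontal basal cell markers summed to 1156 to 1348 CPM in shCBX8, 299 to 1105 CPM in libraries labelled shCBX7 and 322 to 1205 CPM in shCTR. In shCBX8 against shCTR, 1 of the 6 was called higher and 0 lower, against 17% and 15.9% of all genes. Their log2 fold changes ran from -0.82 to 1.82, with 5 above 0 and 1 below. The 5 sustentacular cell markers summed to 1921 to 5762 CPM in shCBX8, 40.8 to 863 CPM in libraries labelled shCBX7 and 50.3 to 804 CPM in shCTR, nearly all of it the simple epithelial keratin Krt18, while the defining Cyp2g1 and Cyp1a2 were near 0. Among globose basal cell markers, Hes6 had 58.1, 36.0 and 75.6 CPM in shCBX8 replicates 1, 2 and 6, 21.9, 22.5 and 27.1 CPM in shCBX7 replicates 1, 2 and 5, and 23.0, 18.3, 21.8 and 21.5 CPM in shCTR replicates 1, 2, 5 and 6. Every shCBX8 library was thus above every other library for Hes6. Kit and Neurod1, the other markers of that list that passed the low-count filter, stood at 5.27 CPM or lower in every library. In shCBX8 against shCTR, edgeR called 1 of these 3 markers higher and 1 lower at an adjusted p under 0.05. Of all genes, 17% were called higher and 15.9% lower. The log2 fold changes of the 3 markers ran from -1.78 to 1.42, so the list did not move in 1 direction. Macrophage markers summed to 6.73 to 13.8 CPM in shCBX8, above the 3.36 to 5.82 CPM in shCTR, and to 2.53 to 8.39 CPM in libraries labelled shCBX7. Only 1 of these 5 markers was called higher in shCBX8 against shCTR and 0 lower, beside the same shares of all genes. Their log2 fold changes had a median of 0.20 and ran from -0.88 to 1.69. Olfactory neuron markers summed to 5.46 to 52.4 CPM in shCBX8, 30.7 to 106 CPM in libraries labelled shCBX7 and 19.9 to 63.8 CPM in shCTR, and glial markers to 7.58 to 23.1, 11.6 to 46.2 and 7.76 to 37.2 CPM in the same order of groups.

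With the Cbx8 hairpin, most mitosis genes had lower mean levels than with the control hairpin, but no gene of the set passed the test. Of the 35 genes, 33 had a negative log2 fold change and 14 had one under -1, against 50.8% and 15.2% of all genes tested. The median over the set was -0.84, with a range of -1.58 to 0.28, beside a median of -0.01 over all genes. At an adjusted p under 0.05 in edgeR's quasi-likelihood test with Benjamini-Hochberg adjustment, 0 of 35 were called, while 32.9% of all genes were called. At an unadjusted p under 0.05 there were 7 of 35 (Mki67, Ccnb2, Kif20a, Cenpa, Cdc20, Ccnb1 and Ccna2), against 45.5% of all genes, and DESeq2 called 4 (Mki67, Ccnb2, Cenpa and Kif20a), against 41% of all genes. The groups overlapped in all 35 genes, while 19.5% of all genes had every shCBX8 library below every shCTR library and 22.9% had every one above. The median standard error of the log2 fold change was 0.44 in the set and 0.27 over all genes. The call count depended on which library was in the fit. It was 14 without shCBX8 replicate 2 (median -1.30), where 35.6% of all genes were called. It was 7 without shCTR replicate 2 (median -1.13), where 26.1% of all were called. It was 0 without any other single library, where 13.1 to 32% of all genes were called. The lowest of those shares were 13.1% without shCBX8 replicate 1 and 13.2% without shCBX8 replicate 6, against 32.9% with all libraries. The median was -0.50 without shCBX8 replicate 6.

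**Figure D1:**
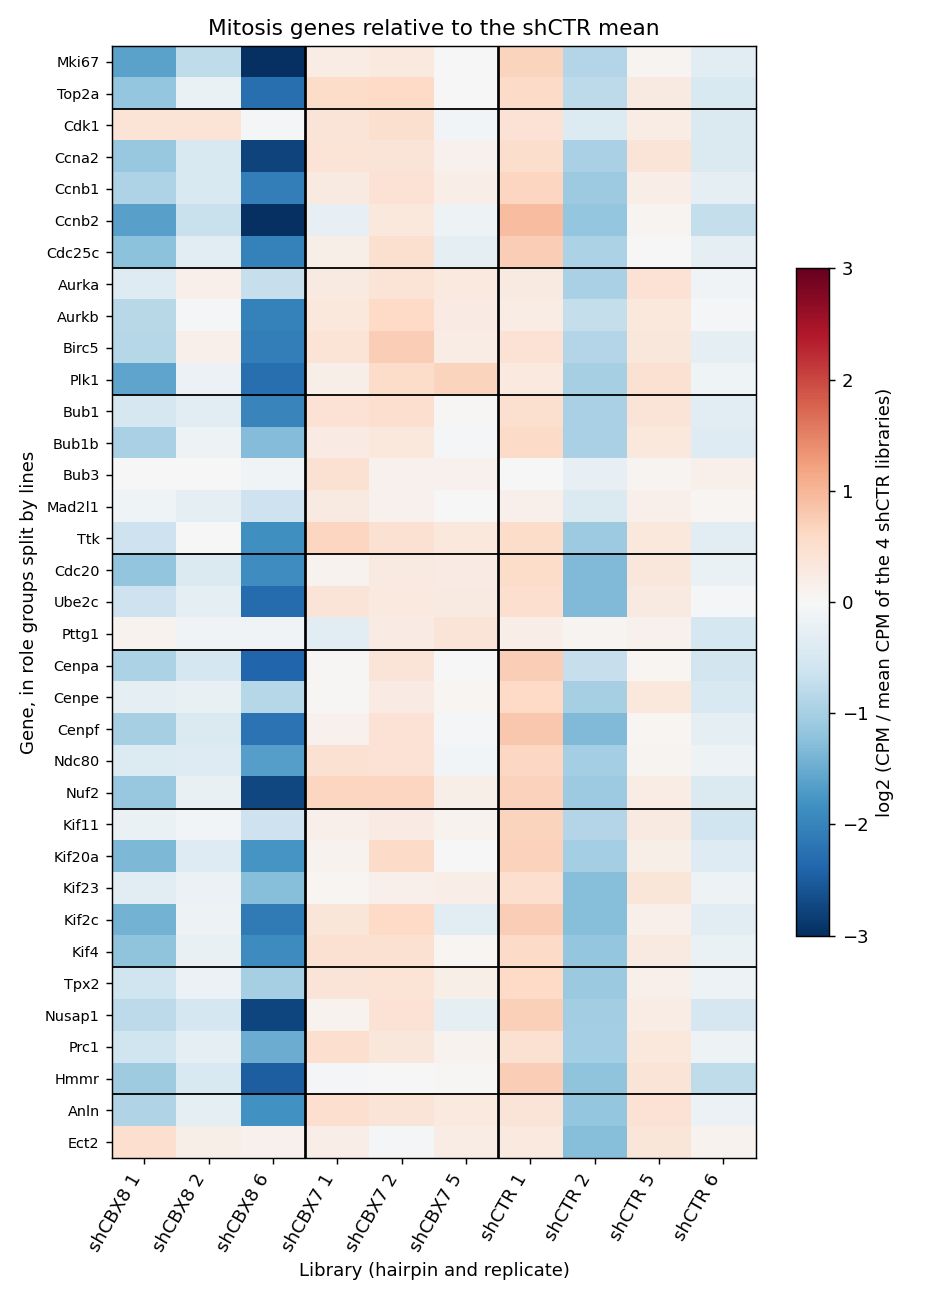
Level of each of the 35 mitosis genes (rows, in role groups split by horizontal lines) in each of the 10 libraries (columns, shCBX8, then shCBX7, then shCTR), as log2 of the CPM over the mean CPM of the 4 shCTR libraries. Blue is below and red above the shCTR mean. shCBX8 replicate 6 is the lowest library of all 10 in 27 genes, shCTR replicate 2 is the lowest shCTR library in 33 genes, and the Cdk1, Bub3, Pttg1 and Ect2 rows are pale in the shCBX8 columns.

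Libraries of the same group differed across the set as a whole. In shCBX8 replicates 1, 2 and 6 the median gene of the set stood at 55.0, 85.1 and 26.9% of the shCTR mean. In shCTR replicates 1, 2, 5 and 6 it stood at 149, 49.6, 120 and 81.4%. One control library was thus below shCBX8 replicates 1 and 2 by this measure, and shCBX8 replicate 6 was below every control library. The order replicate 6, then 1, then 2 was seen in 31 of 35 genes in shCBX8, and shCTR replicate 1 was the highest control in 28. A shCBX8 library lay above shCTR replicate 2 in all 35 genes, while all 3 shCBX8 libraries lay below the other 3 controls in 18. The count of 18 sets shCTR replicate 2 aside after its low values were seen. It has no share over all genes beside it and describes these libraries only. With shCTR replicate 2 included, the groups overlapped in all 35 genes. The summed level of the set was 530.5, 687 and 343 CPM in shCBX8 replicates 1, 2 and 6, against 1127, 450.1, 937 and 667 CPM in shCTR replicates 1, 2, 5 and 6. The fibroblast marker sum was 309, 3176 and 241 CPM in the same shCBX8 libraries, against 9151, 28874, 6332 and 6217 CPM in the shCTR libraries. The shCTR library with the lowest mitosis sum had the highest fibroblast sum, and the shCBX8 library with the highest mitosis sum also had the highest fibroblast sum of its group. The highest and lowest controls by the median gene, shCTR replicates 1 and 2, also had the most unmapped reads (21.7 and 19.6%). The parts of cell composition and of mapping in the result were not tested.

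The difference between shCBX8 replicates 6 and 1 was itself large for the set. Those libraries were alike over all 16669 genes (r = 0.991 of log2 CPM, a description of these libraries across genes). The log2 ratio of replicate 6 over replicate 1 ran from -0.66 to 0.60 between the 5th and 95th percentiles of all genes. The mitosis genes had a median ratio of -0.91 and a range of -1.94 to -0.12, and 24 of the 35 lay below that 5th percentile. In shCTR replicate 2 over the mean of replicates 1, 5 and 6, the set had a median log2 ratio of -1.18, and 9 of the 35 genes lay below the 5th percentile of all genes, -1.33. The median fold between the highest and lowest library of a group was 3.15 in shCBX8 and 1.28 in libraries labelled shCBX7, against 3.03 in shCTR.

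Proliferation marker genes had the lowest group median, -1.28. Mki67 (ENSMUSG00000031004, chr7:135689784-135716361, minus strand, GRCm38) encodes the Ki-67 protein, which coats mitotic chromosomes and marks cycling cells. It had 15.1, 26.9 and 4.13 CPM in shCBX8 replicates 1, 2 and 6, against 72.9, 25, 48.6 and 37.2 CPM in shCTR replicates 1, 2, 5 and 6. Only shCBX8 replicate 2 reached the control range, just above shCTR replicate 2. Its log2 fold change of -1.58 (SE 0.56, edgeR adjusted p = 0.0543) missed the threshold, with a 95% interval of -2.83 to -0.33. Over the alternative settings this adjusted p ran from 0.0124 to 0.147. Top2a, the topoisomerase that untangles sister chromatids, averaged 48.9 ± 32.4 CPM in shCBX8 and 95.8 ± 40.6 CPM in shCTR (SD, n = 3 and 4), with a log2 fold change of -0.97 (SE 0.48).

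Among CDK1 and its partners, the cyclins had negative values in shCBX8 against shCTR and the kinase a positive one, none of which passed. Ccnb2 (ENSMUSG00000032218, chr9:70407692-70421547, minus strand), a B-type cyclin that activates CDK1 at mitotic entry, had 4.36, 8.45 and 1.5 CPM in shCBX8, against 25.3, 6.01, 14.2 and 8.12 CPM in shCTR. Its log2 fold change was -1.49 (SE 0.62, adjusted p = 0.0910), and shCBX8 replicate 2 lay above shCTR replicates 2 and 6. Ccna2, the cyclin of S phase and G2, had 11.2, 17.8 and 3.57 CPM in shCBX8, against 35.4, 12.5, 31.6 and 18.0 CPM in shCTR (log2 fold change -1.17, SE 0.51). Every shCBX8 library was below shCTR replicates 1, 5 and 6, and replicate 2 was above shCTR replicate 2. Ccnb1, the main mitotic cyclin, had a log2 fold change of -1.01 (SE 0.44), and Cdc25c, a phosphatase that activates CDK1, of -1.03 (SE 0.49).

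Cdk1 (ENSMUSG00000019942, chr10:69335146-69352938, minus strand) had 39.3, 39.4 and 29.0 CPM in shCBX8, against 40.1, 22.3, 34.5 and 22.2 CPM in shCTR. The groups overlapped over most of their range, and the log2 fold change was 0.27 with a 95% interval of -0.28 to 0.82. On the scale of CPM per kilobase of exon, the ratio of Cdk1 to Ccna2 was 2.91, 1.84 and 6.73 in shCBX8, 1.01, 1.09 and 0.869 in libraries labelled shCBX7, and 0.938, 1.48, 0.902 and 1.02 in shCTR. All 3 shCBX8 libraries lay above all 7 others. The ratio of Cdk1 to Ccnb1 was 4.8, 3.52 and 7.90 in shCBX8, against 1.67, 3.10, 1.94 and 1.72 in shCTR, and again the groups did not overlap. Both ratios were highest in shCBX8 replicate 6 and, among controls, in shCTR replicate 2, the libraries with the lowest summed level of the set. In mean CPM per kilobase Cdk1 ranked 3rd of the 35 genes in shCBX8, 9th in libraries labelled shCBX7 and 7th in shCTR, while Mki67 ranked 22nd, 12th and 12th in the same order of groups. These ratios and ranks were chosen after the values were seen and carry no test.

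**Figure D2:**
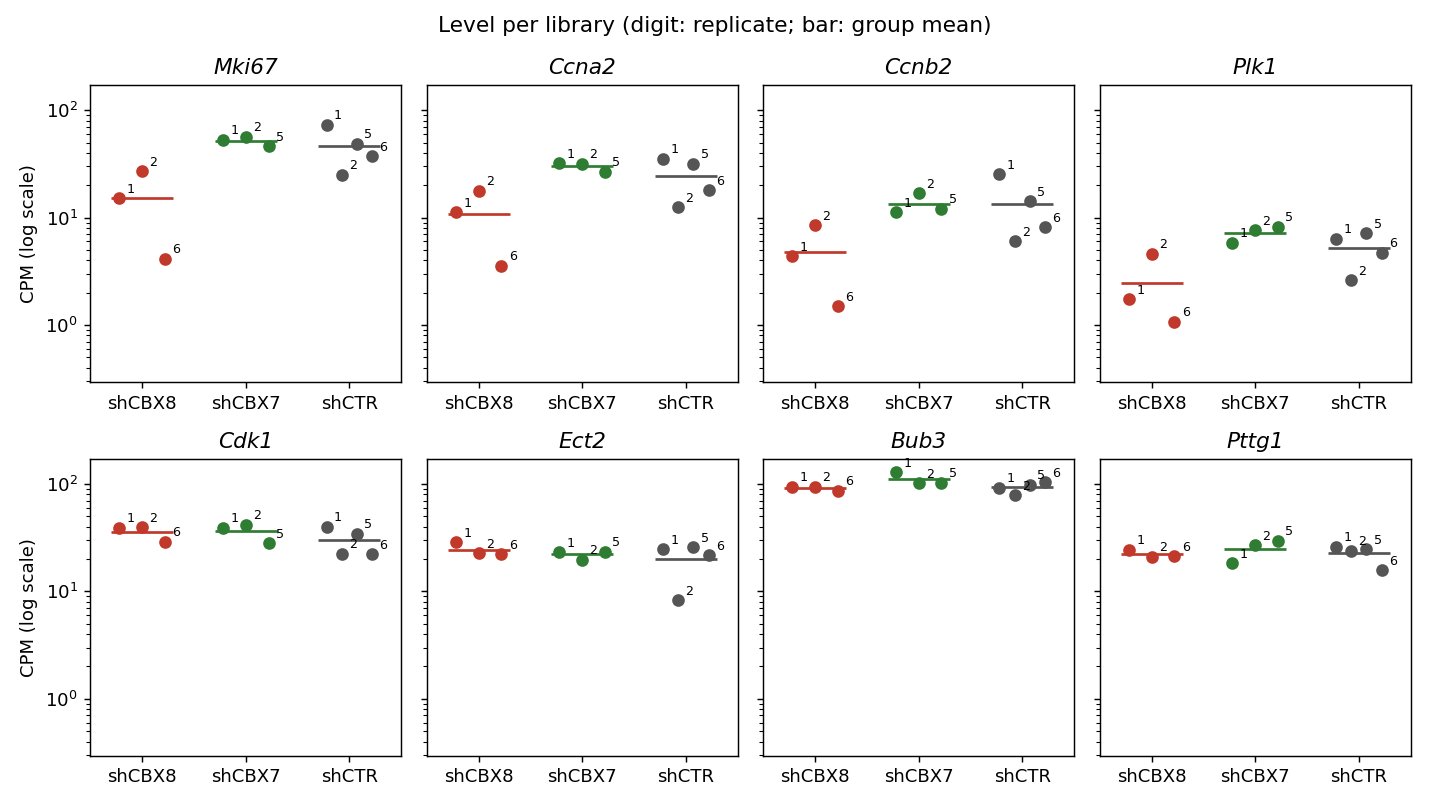
CPM on a log scale of 8 mitosis genes in the shCBX8, shCBX7 and shCTR libraries. Each point is a library, the digit is its replicate and the bar is the group mean. In the upper row (Mki67, Ccna2, Ccnb2 and Plk1) shCBX8 replicate 6 is the lowest point and shCBX8 replicate 2 lies above shCTR replicate 2. In the lower row (Cdk1, Ect2, Bub3 and Pttg1) the shCBX8 points lie within or near the shCTR range.

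Aurora and Polo kinases drive centrosome separation, chromosome alignment and cytokinesis, and this group had a median of -0.71. Plk1 (ENSMUSG00000030867, chr7:122159439-122169873, plus strand), the Polo kinase, had 1.74, 4.63 and 1.07 CPM in shCBX8, against 6.34, 2.60, 7.12 and 4.72 CPM in shCTR. Replicate 2 was inside the control range and the other shCBX8 libraries were below it (log2 fold change -1.07, SE 0.51, adjusted p = 0.130). Aurkb and Birc5, the kinase and the survivin subunit of the chromosomal passenger complex, had values of -0.75 (SE 0.43) and -0.67 (SE 0.49). Aurka, the centrosomal Aurora kinase, averaged 8.20 ± 2.48 CPM in shCBX8 and 9.85 ± 3.68 CPM in shCTR (SD, n = 3 and 4).

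The spindle checkpoint delays anaphase until all kinetochores are attached, and its 5 genes spanned -0.77 to -0.03. Bub1b, which encodes the inhibitor BUBR1 (ENSMUSG00000040084, chr2:118598211-118641591, plus strand), had 10.1, 17.8 and 8.06 CPM in shCBX8, against 29.4, 10.1, 24.6 and 15.1 CPM in shCTR (log2 fold change -0.73, SE 0.39, adjusted p = 0.171). The groups overlapped, with shCBX8 replicate 2 above shCTR replicates 2 and 6. Bub3 (ENSMUSG00000066979, chr7:131560222-131571895, plus strand), which brings BUB1 and BUBR1 to kinetochores, had 94.3, 94.0 and 86.6 CPM in shCBX8, against 92.5, 78.6, 98.1 and 104 CPM in shCTR. The shCBX8 values of Bub3 lay inside the control range, and its 95% interval was -0.32 to 0.26. Its small fold change of -0.03 turned positive under some settings. The kinases Bub1 and Ttk had values of -0.77 (SE 0.44) and -0.64 (SE 0.47), and Mad2l1, the checkpoint protein MAD2, of -0.32 (SE 0.19).

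The anaphase-promoting complex marks cyclin B and securin for destruction. Its activator Cdc20 (ENSMUSG00000006398, chr4:118432901-118437352, minus strand) had 8.36, 14.1 and 5.25 CPM in shCBX8, against 27.8, 7.56, 23.9 and 16.5 CPM in shCTR. All shCBX8 values were below shCTR replicates 1, 5 and 6, and the log2 fold change was -1.04 (SE 0.44, adjusted p = 0.0968). Its ubiquitin-conjugating enzyme Ube2c had a value of -0.84 (SE 0.50). Securin, encoded by Pttg1 (ENSMUSG00000020415, chr11:43420250-43426251, minus strand), had 24.5, 21 and 21.2 CPM in shCBX8, against 26.1, 23.9, 24.7 and 15.8 CPM in shCTR. The shCBX8 values of Pttg1 lay within the control range, with a 95% interval of -0.51 to 0.45 around -0.03, a sign that turned under some settings.

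Centromere and kinetochore genes had a median of -1.04, all 5 with negative values. Cenpa (ENSMUSG00000029177, chr5:30666777-30674830, plus strand), the histone H3 variant that defines centromeres, had 5.03, 6.67 and 1.87 CPM in shCBX8, against 16.0, 6.01, 10.1 and 6.56 CPM in shCTR. shCBX8 replicate 2 lay just above shCTR replicates 2 and 6 (log2 fold change -1.10, SE 0.46, adjusted p = 0.0943). Cenpf and Nuf2, parts of the outer kinetochore, each had a value of -1.04 (SE 0.51 and 0.56), Ndc80, which holds microtubules together with NUF2, of -0.71 (SE 0.41), and the motor Cenpe of -0.42 (SE 0.35).

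The 5 mitotic kinesins had a median of -0.95. Kif20a (ENSMUSG00000003779), a motor of the central spindle, had 11.5, 22.1 and 8.49 CPM in shCBX8, against 46.8, 14.3, 32.6 and 22.3 CPM in shCTR. Its log2 fold change was -1.05 (SE 0.44, adjusted p = 0.0901), and all shCBX8 libraries were below shCTR replicates 1, 5 and 6. Kif2c, which depolymerises microtubules at centromeres, and the chromokinesin Kif4 had values of -1.01 (SE 0.55) and -0.95 (SE 0.46). Kif23, a part of centralspindlin, and Kif11, the motor that pushes the spindle poles apart, had values of -0.52 (SE 0.40) and -0.28 (SE 0.34).

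Of the genes of spindle and midzone microtubules, Hmmr (ENSMUSG00000020330, chr11:40701395-40733422, minus strand), which helps to orient the spindle, had 11.6, 17.8 and 4.36 CPM in shCBX8, against 40.3, 10.4, 31.7 and 14.3 CPM in shCTR. Replicates 1 and 2 lay inside the control range (log2 fold change -1.11, SE 0.54, adjusted p = 0.140). Nusap1, which bundles spindle microtubules, the midzone crosslinker Prc1 and the Aurora A activator Tpx2 had values of -1.08 (SE 0.55), -0.71 (SE 0.37) and -0.55 (SE 0.35).

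The pair of cytokinesis genes pointed apart. Anln (ENSMUSG00000036777, chr9:22332012-22389188, minus strand), the furrow scaffold anillin, had 27.9, 42.5 and 14.9 CPM in shCBX8, against 68.6, 23.4, 70.8 and 46.2 CPM in shCTR (log2 fold change -0.88, SE 0.41, adjusted p = 0.128). Ect2 (ENSMUSG00000027699, chr3:27097222-27153878, minus strand), which activates RhoA at the furrow, had 28.6, 22.6 and 22.2 CPM in shCBX8, against 24.6, 8.27, 25.9 and 21.8 CPM in shCTR. The low shCTR replicate 2 set the sign of Ect2: the log2 fold change was 0.28 (SE 0.33) with it and -0.0051 without it. Neither gene passed the test, and both pairs of groups overlapped.

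**Figure D3:**
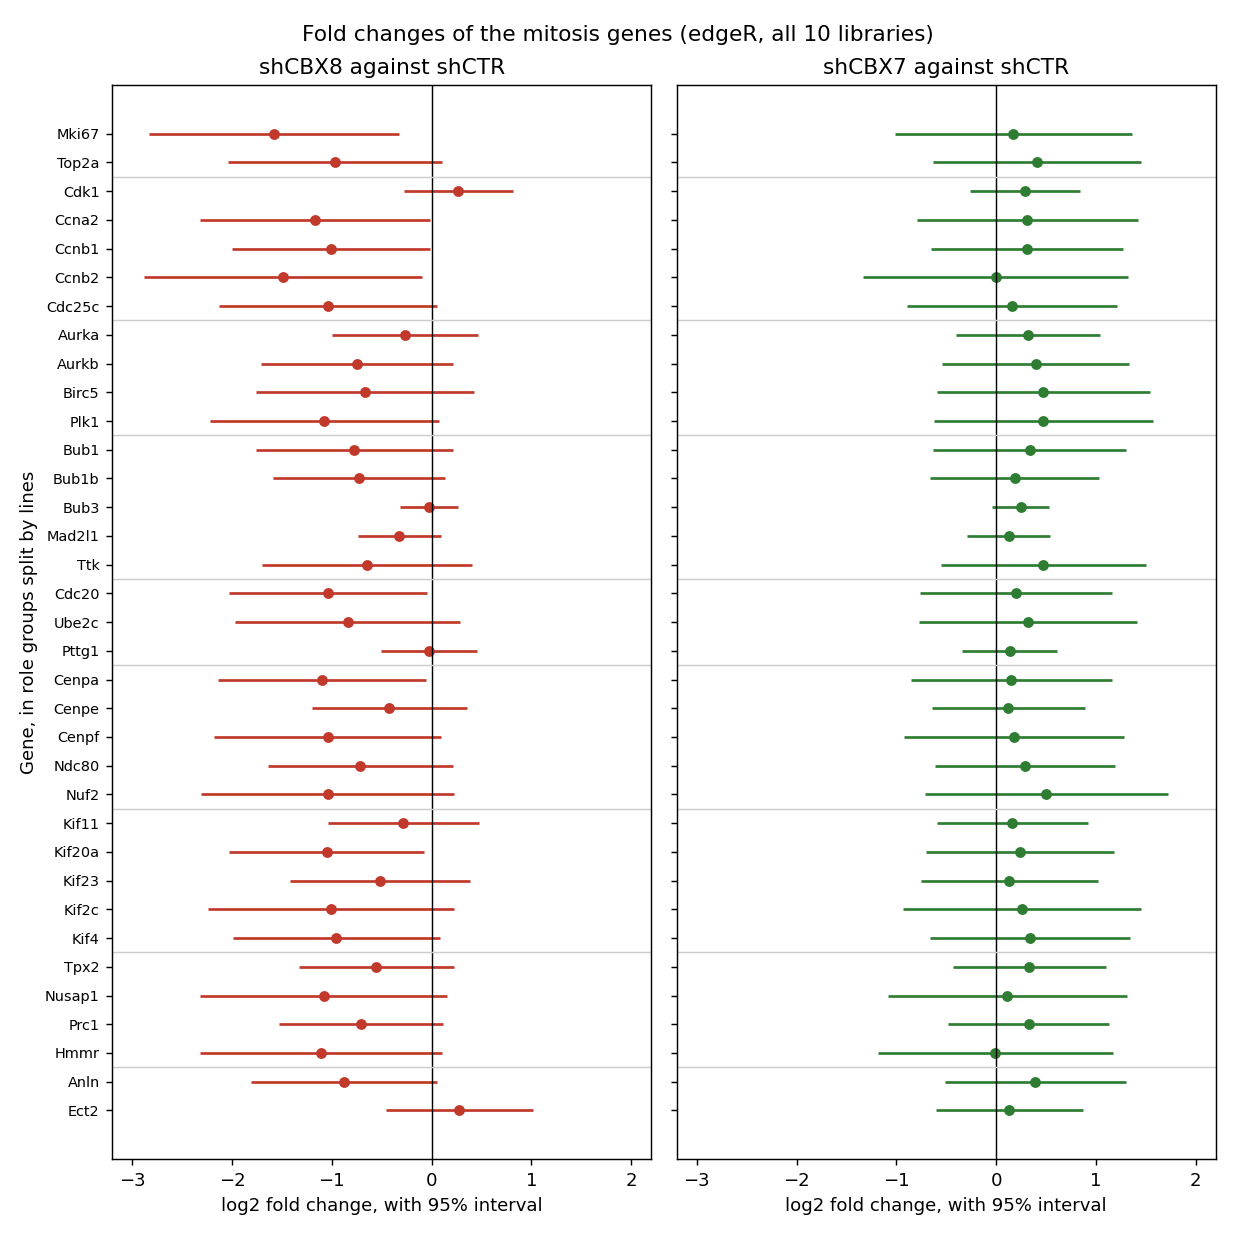
log2 fold change with its 95% interval (edgeR, all 10 libraries) for each of the 35 mitosis genes, in shCBX8 against shCTR (left) and in shCBX7 against shCTR (right). On the left 33 of 35 points lie below 0, and on the right 33 of 35 lie above 0 with every interval crossing it.

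With the Cbx7 hairpin no mitosis gene passed the test. Of the 35 genes, 0 were called in edgeR's quasi-likelihood test and 0 at an unadjusted p under 0.05, beside 0% and 5.85% of all genes, and DESeq2 also called 0 of 35, beside 0.549% of all genes. The set had a median log2 fold change of 0.26 and a range of -0.01 to 0.51, with 33 of 35 above 0, against 50% of all genes. The groups overlapped in all 35 genes, while 3.73% of all genes were wholly lower and 1.7% wholly higher. In 23 genes all 3 libraries labelled shCBX7 lay inside the range of the 4 shCTR libraries. The median gene stood at 121, 132 and 107% of the shCTR mean in shCBX7 replicates 1, 2 and 5, and the summed level of the set was 992, 1024 and 848 CPM there. Without shCTR replicate 2 the median was 0.07 and without shCTR replicate 1 it was 0.51. This comparison and that of shCBX8 share the same 4 shCTR libraries.

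The gene with the smallest p in each role group stayed far from the threshold in the libraries labelled shCBX7. Bub3 had 129, 101 and 103 CPM there, against 92.5, 78.6, 98.1 and 104 CPM in shCTR, with a log2 fold change of 0.25 (SE 0.13, edgeR adjusted p = 0.915), the smallest p of the set. Replicates 2 and 5 lay within the control range and replicate 1 above it. Cdk1 had 39.2, 41.9 and 28.2 CPM there, with a value of 0.29 (SE 0.25). Top2a averaged 127 ± 27.5 CPM in libraries labelled shCBX7 and 95.8 ± 40.6 CPM in shCTR (SD, n = 3 and 4), with a value of 0.41 (SE 0.46). The values of Nuf2 (0.51, SE 0.54), Anln (0.39, SE 0.40), Kif4 (0.34, SE 0.45), Tpx2 (0.33, SE 0.34), Aurka (0.32, SE 0.32) and Ube2c (0.32, SE 0.49) were all smaller than their standard errors or close to them.

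Set directly against the libraries labelled shCBX7, the shCBX8 libraries were lower in nearly the whole set. In 31 of the 35 genes every shCBX8 library lay below every library labelled shCBX7, against 22.6% of all genes (25.6% were wholly higher), and the exceptions were Cdk1, Pttg1, Ect2 and Kif2c. The median log2 fold change was -1.14 (0.00 over all genes), 34 of 35 were below 0, and 24 were under -1, against 49.8% and 13.1% of all genes. Even so, 1 of 35 was called by edgeR's quasi-likelihood test, against 28.6% of all genes, and 20 of 35 had an unadjusted p under 0.05, against 42.7%. The called gene was Mki67, which had 15.1, 26.9 and 4.13 CPM in shCBX8 replicates 1, 2 and 6, against 53.2, 56.4 and 46.0 CPM in shCBX7 replicates 1, 2 and 5. Mki67 fell by 1.76 on the log2 scale (SE 0.58, adjusted p = 0.0494). That call ended without shCBX8 replicate 1 or 6, any 1 of the libraries labelled shCBX7, or shCTR replicate 5 or 6, which share the estimate of the spread. The share of all genes called was 10.7 and 10.4% without shCBX8 replicates 1 and 6, against 28.6% with all libraries. It was 15.7, 16.6 and 24.8% without shCBX7 replicates 1, 2 and 5, and 23.9 and 29.6% without shCTR replicates 5 and 6. Blocking on replicate ended the Mki67 call too (0 of 35 called), as did a change to library size only, to a filter at a mean of 1 CPM or to only these 2 groups in the fit, where Tpx2 and Anln were called instead. Over the alternatives its log2 fold change ran from -2.45 to -1.31 and its adjusted p from 0.01 to 0.139. Without shCBX8 replicate 2 there were 19 genes called (median -1.61), against 34.5% of all genes, and without shCTR replicate 2 there were 11, against 30.9% of all. The median was -0.77 without shCBX8 replicate 6. DESeq2 called 13, against 37.7% of all genes.

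**Figure D4:**
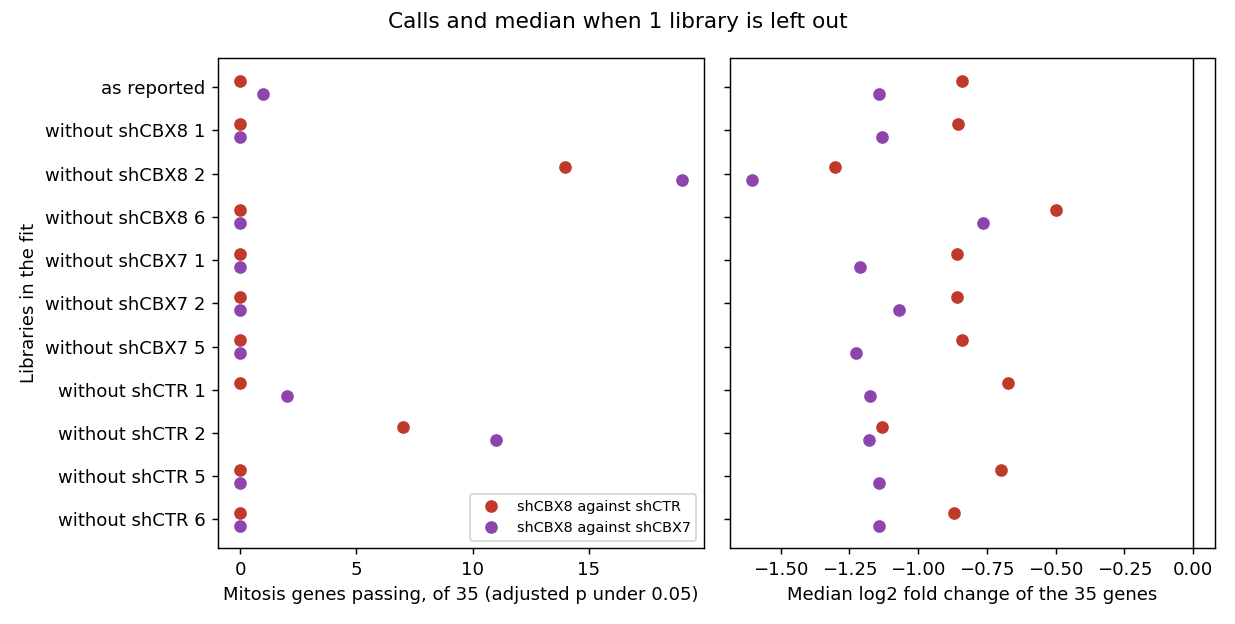
Number of the 35 mitosis genes called by edgeR at an adjusted p under 0.05 (left) and their median log2 fold change (right) with all 10 libraries and with each library left out, for shCBX8 against shCTR (red) and shCBX8 against shCBX7 (purple). The counts go to 14 and 19 without shCBX8 replicate 2 and to 7 and 11 without shCTR replicate 2, and every median is below 0.

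Between shCBX8 and the libraries labelled shCBX7, the genes with the smallest p of the other role groups did not pass the test. Ccnb1 had 7, 9.56 and 3.14 CPM in shCBX8, against 16.0, 17.9 and 15.2 CPM in libraries labelled shCBX7. Plk1 had 1.74, 4.63 and 1.07 CPM in shCBX8, against 5.84, 7.66 and 8.20 CPM in libraries labelled shCBX7. Every library of one group was below every library of the other in both genes, with log2 fold changes of -1.32 (SE 0.47, edgeR adjusted p = 0.0599) and -1.55 (SE 0.54, adjusted p = 0.0574). Anln, Kif20a, Cdc20 and Prc1 had values of -1.27 (SE 0.44), -1.29 (SE 0.46), -1.24 (SE 0.47) and -1.04 (SE 0.39), and Nuf2 and Bub1 of -1.55 (SE 0.60) and -1.11 (SE 0.47), each with separated groups.

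Of 83 further mitotic genes in 6 lists, 8 were called higher and 13 lower in shCBX8 against shCTR, against 17% and 15.9% of all genes. Their median was -0.26, and 61 of the 83 were below 0. None was called in shCBX7 against shCTR by edgeR, and 1 had an unadjusted p under 0.05, beside 0% and 5.85% of all genes. Unlike the set, these lists had smaller errors (median SE 0.24). The transcription regulators of the set are the DREAM, MuvB, E2F and FOXM1 genes, 16 in all. Of these, 2 were called higher and 4 lower, against the same 17% and 15.9% of all genes, and the list was not tested as a whole. E2f4, the main E2F of DREAM, had 23.3, 26.8 and 26.3 CPM in shCBX8, against 13.3, 14.2, 18.7 and 16.4 CPM in shCTR. Lin9, a subunit of the MuvB core, had 21.1, 13.0 and 20.5 CPM in shCBX8, against 9.23, 5.56, 8.90 and 9.13 CPM in shCTR. The groups of both genes were apart, with rises of 0.70 (SE 0.15, adjusted p = 0.0104) and 1.15 (SE 0.24, adjusted p = 0.00863) on the log2 scale by edgeR. The E2f4 call ended with both shCTR 1 and 2 left out (adjusted p up to 0.0724 over the alternatives). Rbl2, the pocket protein p130 of DREAM, fell by 0.54 (SE 0.08, adjusted p = 0.00333), and Lin54, the MuvB subunit that contacts the CHR, fell by 0.66 (SE 0.12, adjusted p = 0.00550). Rb1, the retinoblastoma protein, and Tfdp1, a partner of E2F proteins, also fell, by 0.72 (SE 0.17) and 0.47 (SE 0.14). The call of Rb1 ended without shCBX8 replicate 6 and with scaling by library size only. That of Tfdp1 ended without shCBX8 replicate 1 or 6 or shCTR replicate 5 or 6, with the replicate block, with library size only, with no low-count filter and with unstranded counts. Their adjusted p ran up to 0.0669 and 0.177 over the alternatives. Of all genes, 13.1 and 13.2% were called without shCBX8 replicates 1 and 6, and 14.3% without both shCTR 1 and 2, against 32.9% with all libraries.

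The activators of the set did not pass the test. Foxm1 had 2.47, 5.5 and 1.68 CPM in shCBX8, against 6.53, 6.01, 7.65 and 6.36 CPM in shCTR. Every shCBX8 library was below every shCTR library, and shCBX8 replicate 2 was again the highest of its group (log2 fold change -1.05, SE 0.40, edgeR adjusted p = 0.0671). In shCTR replicate 2 Foxm1 was close to the other controls, while the median gene of the set was at 49.6% of the shCTR mean there. Mybl2, which encodes B-MYB, had 1.05, 1.26 and 0.688 CPM in shCBX8, against 0.673, 1.45, 1.46 and 1.5 CPM in shCTR, a value of -0.35 (SE 0.36) with overlapping groups.

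Other parts of the mitotic machinery had calls in both directions. Each count below stands beside 17% of all genes called higher and 15.9% called lower in shCBX8 against shCTR. No list was tested as a whole. Fits without shCBX8 replicate 1 or 6 called 13.1 and 13.2% of all genes, against 32.9% with all libraries. Those without shCTR replicate 1, 2 or 5 called 24.2, 26.1 and 24.4%. Of 6 regulators of mitotic entry or of the anaphase-promoting complex, 2 with opposite action on CDK were called higher and 0 lower in shCBX8 against shCTR. By edgeR, the CDK-activating phosphatase Cdc25a rose by 0.86 (SE 0.14, adjusted p = 0.00351) and the inhibitory kinase Wee1 by 1.09 (SE 0.31, adjusted p = 0.0257). The Wee1 groups overlapped, and its call ended without shCBX8 replicate 1 or 6 or shCTR replicate 1, 2 or 5, with adjusted p up to 0.122 over the alternatives. Of 11 core subunits of the anaphase-promoting complex, 1 was called higher and 4 lower, among them Cdc23 (-0.80, SE 0.12), Anapc11 (-0.84, SE 0.13) and Anapc1 (-0.79, SE 0.14), whose calls held in every alternative run. The call of Anapc5 (-0.40, SE 0.13) ended in several, among them without shCBX8 replicate 1 or 6, shCBX7 replicate 5 or shCTR replicate 2 or 5 (adjusted p up to 0.181). Condensin and cohesin had 1 of 14 called higher (Ncaph2) and 2 lower (Rad21 and Ncapd2), and all 3 calls ended without shCBX8 replicate 1 or 6, that of Ncapd2 also without shCTR replicate 1 or 5 (adjusted p up to 0.0784, 0.0927 and 0.112 in that order of genes). The other kinetochore and passenger genes had 2 of 15 called higher (Zwint and Mis12) and 2 lower (Incenp and Cenpm). The kinetochore protein Zwint rose by 0.91 (SE 0.16, adjusted p = 0.00463), a call that held in every alternative run. Those of Mis12, Incenp and Cenpm ended without shCBX8 replicate 1 or 6 and without some of the other libraries, and those of Mis12 and Incenp also with the replicate block (adjusted p up to 0.141 for Mis12 and 0.154 for Incenp). Of 21 further spindle, centrosome and cytokinesis genes, 0 were called higher and 1 lower, while 20 were below 0, with a median of -0.51. That gene was Aspm, the spindle pole protein, which fell by 1.64 (SE 0.51, adjusted p = 0.0361), a call that ended without shCBX8 replicate 1 or 6 or shCTR replicate 1 or 5, or with only the 2 groups in the fit (adjusted p up to 0.112 over the alternatives).

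Genes of the earlier cell cycle stages were counted beside the mitosis genes. Of 20 S phase genes, 3 were called higher and 0 lower in shCBX8 against shCTR, against 17% and 15.9% of all genes. The median of the 20 was 0.18. The 3 called were Mcm2, a helicase subunit (0.91, SE 0.29), the sliding clamp Pcna (0.52, SE 0.13) and the flap nuclease Fen1 (1.01, SE 0.27). These 3 calls ended without shCBX8 replicate 1 or 6 or shCTR replicate 1, that of Mcm2 also without shCBX8 replicate 2 or shCBX7 replicate 2 or with only the 2 groups in the fit, that of Pcna also without shCTR replicate 2, and that of Fen1 also with unstranded counts, with adjusted p up to 0.114, 0.124 and 0.205 over the alternatives for Mcm2, Pcna and Fen1. The summed S phase level was 621, 651 and 565 CPM in shCBX8 replicates 1, 2 and 6, against 540.5, 387, 641 and 508 CPM in shCTR replicates 1, 2, 5 and 6. shCBX8 replicate 6, lowest of the 10 libraries in 27 mitosis genes, was thus inside the control range for S phase, while shCTR replicate 2 was the lowest control in both sums. The difference between the medians of the sets was not tested. Of 8 G1 cyclins and kinases, 0 were called higher and 2 lower by edgeR, against the same 17% and 15.9% of all genes. The 2 were Cdk2 (-0.86, SE 0.18, adjusted p = 0.00951), whose kinase drives S phase entry, and the D-type cyclin Ccnd3 (-1.04, SE 0.30, adjusted p = 0.0295). The call of Ccnd3 ended without shCBX8 replicate 1 or 6 or shCTR replicate 1 or 2 (adjusted p up to 0.160 over the alternatives). Of all genes, 13.1 and 13.2% were called without shCBX8 replicates 1 and 6, against 32.9% with all libraries. Without shCTR replicates 1 and 2 the shares were 24.2 and 26.1%.

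Ccna2 and Kif20a lie where reads also came from the other strand, with forward-strand reads making up 47.8% and 34.3% of the stranded counts at these genes, against a median of 0.446% over the set. The values given here count the reverse strand alone, which is the strand of the gene in this library kit.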

How the data were processed

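Total RNA was sequenced in 10 libraries made with a stranded kit and grouped by hairpin from the sample titles. Alignment used STAR 2.5.0a and the mm10 build after bcl2fastq 2.17 and Trim Galore 0.4.3, per the submitters' processing notes. The gene annotation they counted against is not given. The deposited values are raw read counts per Ensembl gene in unstranded, forward and reverse columns, per the file layout. The reverse column was used, because the forward column held 3.42 to 10.4% of the stranded counts. Rows that name no gene were dropped before any scaling or fit, namely unmapped reads (5.03 to 21.7%), multimapping ones (15.4 to 22.1%), those outside genes (12.5 to 23.6%) and ambiguous ones (0.29 to 0.637%). Of 41091 identifiers, 40217 matched GENCODE M21 (GRCm38), the source of symbols, coordinates and exon lengths.

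Genes were filtered with filterByExpr (minimum count 10) and scaled by TMM. The quasi-likelihood test of edgeR 4.0.16 was fitted in R 4.3.3 to all 10 libraries with group as the factor (common biological coefficient of variation 0.375). P-values were Benjamini-Hochberg adjusted over all genes, with 0.05 as the threshold. Intervals are 95%. CPM use the scaled library size. The fit was tested on simulated counts. Single values were compared by exact permutation of log2(CPM + 1). As alternatives, scaling was by RLE or by library size, genes were unfiltered or filtered at a mean of 1 CPM, DESeq2 1.42.0 or unstranded counts were used, the fit held only the pair of groups, each library or both shCTR 1 and 2 were left out, replicate numbers entered as a block, or the threshold was 0.01. Named genes were the members, and up to 4 genes with the smallest p of each other list, with all transcription regulators eligible. Members, lists, rule and role groups were chosen with earlier results of these data known.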

Additional observations from a re-analysis of the deposited data

How the results depend on the processing

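In shCBX8 against shCTR the members called, 0 as reported, were 4 with DESeq2 (41% of all genes), 1 (Mki67) with the replicate number as a block (36.2% of all genes), and 0 to 14 with 1 library left out (13.1 to 35.6% of all genes). In shCBX8 against shCBX7 the count of 1 became 0 with library size only, with a mean of at least 1 CPM, with the replicate block and at a threshold of 0.01; it was 2 with only these groups in the fit (Tpx2 and Anln, without Mki67; 22.9% of all genes), 8 without shCTR 1 and 2 (29.4% of all genes), 13 with DESeq2 (37.7% of all genes), and 0 to 19 with 1 library left out (10.4 to 34.5% of all genes). In shCBX7 against shCTR it stayed 0 in every alternative run. All these calls were lower. The cause of these moves was not tested. The 3 medians kept their sign in every alternative. They ran from -1.30 to -0.50, from 0.07 to 0.51 and from -1.61 to -0.77 with 1 library left out, in the order shCBX8 against shCTR, shCBX7 against shCTR, shCBX8 against shCBX7. Scaling by library size alone moved the median of all genes to 0.17 in shCBX8 against shCTR and to 0.15 in shCBX8 against shCBX7, where the members' medians were -0.69 and -1.01.

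The fold changes near 0 in shCBX8 against shCTR changed sign. Bub3 was 0.15 with library size only, 0.0028 without a filter, 0.026 unstranded, and -0.13 to 0.031 with 1 library left out (above 0 without shCBX8 6 or shCTR 6). Pttg1 was 0.16, 0.0089 and 0.033 under the first 3 of these settings, 0.084 with the block, 0.12 without shCTR 1 and 2, and -0.16 to 0.017 with 1 library left out (above 0 without shCBX8 2, shCBX8 6, shCTR 1 or shCTR 5). Ect2 was -0.0051 to 0.42 with 1 library left out, below 0 without shCTR 2. The cause was not tested. Correlations of same-numbered libraries (deviations from group means) were 0.202, 0.257 and 0.0749 for shCBX8 with shCTR, -0.0783, 0.691 and 0.312 for shCBX7 with shCTR, and 0.130 and 0.332 for shCBX8 with shCBX7. Replicate 2 correlated best with its own number in every comparison, and it had the highest fibroblast marker sum of each group. By contrast, shCBX8 6 correlated best with shCTR 1, and shCBX7 1 with shCTR 6. The numbers were thus not shown to pair samples throughout, and a shared origin of the replicate 2 libraries was not tested. With 3 to 4 libraries a group, the median standard error of a member's log2 fold change was 0.44 in shCBX8 against shCTR, 0.43 in shCBX7 against shCTR and 0.47 in shCBX8 against shCBX7.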
